A study of Mus musculus with 16 samples.

Results

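The 10 genes of polyamine metabolism described here were chosen by name, for their textbook roles: Odc1, Amd1, Srm, Sms, Oaz1, Oaz2, Azin1, Sat1, Paox and Smox. Their chromatin was read from ATAC-seq, in which a transposase cuts open DNA. The material was mouse prostate organoids, which keep prostate epithelium in culture. The SPOPmut organoids were labelled as mutant for SPOP, the substrate adaptor of a ubiquitin ligase that is recurrently mutated in prostate cancer, and the Control organoids carried no such label. Dihydrotestosterone (DHT), a potent androgen, was given at 10 nM, and EtOH, its solvent, stood in for it in the other libraries. Each treatment lasted 24 h in organoid medium from which mEGF, a growth factor, was left out. The 4 groups were SPOPmut with DHT, SPOPmut with EtOH, Control with DHT and Control with EtOH, with 4 libraries each, and all 16 libraries carried the label sgNT. The labels give neither the SPOP allele nor the animals or cultures behind the libraries, so a p-value here reflects the spread among libraries, which may be technical.

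Peaks of the 16 lists that overlapped were merged into 86616 regions, and each region was given to whichever protein-coding gene body lay closest, up to 100 kb away (mm10). The polyamine genes held 81 regions, of which 76 were called in at least 2 libraries and 5 in 1 library. A region was called in a library when that library's list had a peak in it, and regions are numbered along the chromosome within each gene. Of the 76, 47 (61.8%) were called in all 16 libraries, against 48.9% of the 80352 regions of the whole genome that were called in at least 2. Of the 76, 30.3% had their midpoint inside the body of their gene, against 53.3% of all tested regions, and distances below run from that midpoint. The lists held 57245 to 69644 peaks and no read counts, so the depth behind a call is unknown.

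Polyamines are small positively charged molecules that bind nucleic acids, and the prostate makes and secretes them in unusual amounts. Ornithine decarboxylase (Odc1) makes putrescine, S-adenosylmethionine decarboxylase (Amd1) makes the aminopropyl donor, and spermidine synthase (Srm) and spermine synthase (Sms) add that group to give spermidine and then spermine. The antizymes Oaz1 and Oaz2 bind ornithine decarboxylase and send it to the proteasome, and the antizyme inhibitor Azin1 ties the antizymes up. Sat1 acetylates spermidine and spermine, Paox oxidises the acetylated forms, and Smox oxidises spermine directly. Odc1 and Amd1 are known as androgen-responsive genes in the prostate.

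The organoid label was checked on marker genes, a marker being open where a region within 1 kb of its body was called. Of 5 epithelial markers 4 were open in all 16 libraries, as were 3 of 3 basal markers and the prostate luminal marker Hoxb13, while Pbsn was open in none. Of 4 endothelial and 4 stromal markers, 1 and 3 were open in all 16, with Cdh5, Kdr and Col1a2 open in none. Of the immune markers, Cd68 was open in all 16, Cd3e in none, and Ptprc in the 8 SPOPmut libraries and in no Control library. The summed called regions of these 3 immune markers were 2 to 3 in SPOPmut with DHT, 2 in each library of SPOPmut with EtOH and 1 in each Control library, so Control lay lower. Those of the 4 endothelial markers were 6 to 7 in SPOPmut with DHT, 8 in SPOPmut with EtOH, 10 to 11 in Control with DHT and 9 to 10 in Control with EtOH. Those of the 3 basal markers were 18 to 20 in SPOPmut with DHT, 16 to 17 in SPOPmut with EtOH, 22 to 25 in Control with DHT and 17 to 19 in Control with EtOH. The part of cell composition in the results below was not tested. In such bulk libraries, fewer cells of a type with an open region and less opening in each cell cannot be told apart.

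At every gene with a known start window, the region over the start was called in all 16 libraries, as were regions over an end of the Srm and Azin1 bodies, so by calls no difference was seen there. The start windows of 8 of the 10 genes were in the RefSeq table (GRCm38.p6, the build called mm10), which gives 250 bases before and 50 after each start. The 4 below are shown because the regions over Smox, Sat1 and Odc1 ranked higher in SPOPmut libraries, as described further on, while that over Amd1 did not. The region over the Sms start also ranked higher, and its windows are not shown. Capitals mark GC boxes (GGGCGG, read on either strand) and, in Sat1, also 1 steroid response hexamer (AGAACA, here on the other strand), and sequences run 5′ to 3′ on the gene's own strand.
Smox (chr2:131491612-131491911, plus strand): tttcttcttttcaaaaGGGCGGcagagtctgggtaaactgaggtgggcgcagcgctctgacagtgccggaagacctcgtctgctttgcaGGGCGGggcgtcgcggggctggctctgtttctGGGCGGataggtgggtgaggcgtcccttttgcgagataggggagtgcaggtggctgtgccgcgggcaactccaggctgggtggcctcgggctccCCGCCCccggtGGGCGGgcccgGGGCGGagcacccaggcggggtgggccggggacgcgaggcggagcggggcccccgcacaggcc
Sat1 (chrX:155216400-155216699, minus strand): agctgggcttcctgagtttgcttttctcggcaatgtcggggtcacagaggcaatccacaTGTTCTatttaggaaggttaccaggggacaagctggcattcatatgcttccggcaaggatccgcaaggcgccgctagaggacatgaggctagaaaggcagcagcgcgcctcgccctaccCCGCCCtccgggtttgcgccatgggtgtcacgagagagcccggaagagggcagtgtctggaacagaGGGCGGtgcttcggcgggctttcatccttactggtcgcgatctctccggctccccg
Odc1 (chr12:17544623-17544922, plus strand): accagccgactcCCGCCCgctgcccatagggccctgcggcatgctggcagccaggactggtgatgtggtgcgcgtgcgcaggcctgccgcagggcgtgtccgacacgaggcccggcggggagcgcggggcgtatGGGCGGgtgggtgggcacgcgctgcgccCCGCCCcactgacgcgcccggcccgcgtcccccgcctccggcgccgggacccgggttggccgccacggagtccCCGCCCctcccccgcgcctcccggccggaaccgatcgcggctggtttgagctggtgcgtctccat
Amd1 (chr10:40302139-40302438, minus strand): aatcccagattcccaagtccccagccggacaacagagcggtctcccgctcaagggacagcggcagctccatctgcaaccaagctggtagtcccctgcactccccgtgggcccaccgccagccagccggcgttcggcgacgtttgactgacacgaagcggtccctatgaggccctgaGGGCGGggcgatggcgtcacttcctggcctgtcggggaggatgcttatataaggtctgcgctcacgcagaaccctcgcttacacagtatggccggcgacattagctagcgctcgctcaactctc
GC boxes numbered 6 in Smox, 2 in Sat1, 4 in Odc1 and 1 in Amd1, and 35.6% of 32817 such windows over all genes hold at least 1. The AGAACA hexamer, whose match in Sat1 starts at position -191 from the transcription start, is held by 19.0% of windows. The E-box CACGTG (7.15% of windows), the cyclic AMP element TGACGTCA (1.79%), TATAAA (13.6%) and a full steroid response element of 2 inverted hexamers with a spacer of 3 bases (0.00914%) were not found in these 4 windows. Both strands were searched and no match was shared between motifs. Of the windows not shown, the 2 of Sms held 0 and 4 GC boxes, Oaz1 0, Oaz2 4 and each Paox window 3. An E-box lay in the Sms window without GC boxes, TATAAA in Oaz1 and AGAACA in Oaz2. The start regions of Oaz1, Oaz2 and Paox did not rank higher in SPOPmut under both treatments. A link between motifs and ranks was not tested. G and C made up 71.0% of the Smox window, 60.3% of Sat1, 78.0% of Odc1 and 63.0% of Amd1, against a median of 52.7%.

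For the SPOP comparison, called regions per gene were compared between the 8 SPOPmut and the 8 Control libraries within treatment. Amd1, Sat1 and Paox, 1 enzyme of synthesis and 2 of breakdown, had more called regions in SPOPmut organoids. None of the 9 genes that could be tested passed with fewer, and Odc1, Srm, Sms, Oaz2, Azin1 and Smox did not pass. The share called among all 11212 genes tested was 19.4% for more regions and 12.1% for fewer. The median difference was 0.125 regions over the 9 polyamine genes and 0 over all genes. Oaz1 had a single region called in at least 2 libraries and was not tested.

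**Figure D1:**
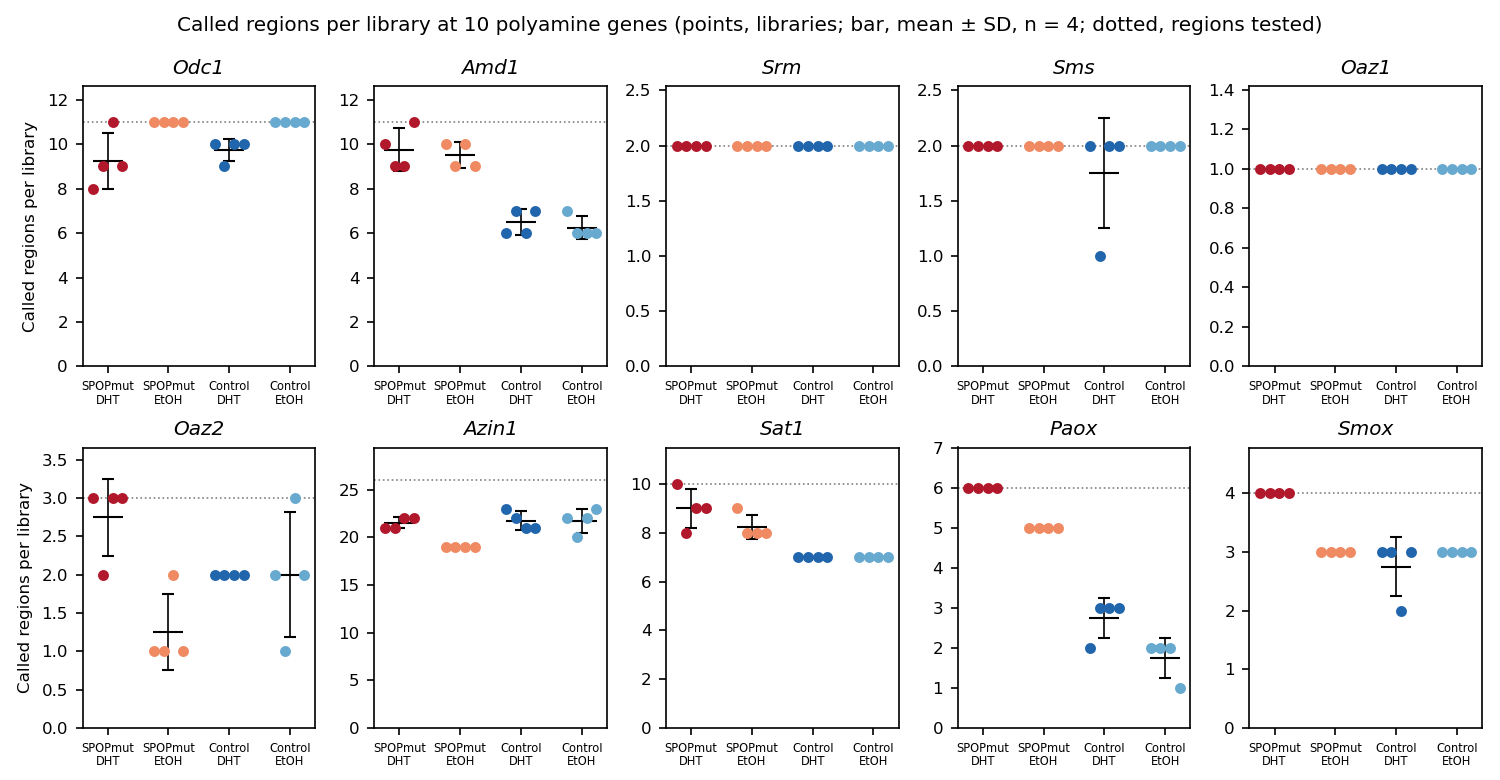
Called regions (vertical axis, number per library) at each polyamine gene in the 4 groups, with points for libraries, a bar and whiskers for mean ± SD (n = 4) and a dotted line at the number of regions tested. All SPOPmut libraries lie above all Control libraries for Amd1, Sat1 and Paox, and Odc1 has 11 regions in all 8 EtOH libraries.

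Amd1 (gene 11702, chromosome 10, 40287458 to 40302188) had 11 regions tested. Its libraries had 10, 9, 9 and 11 called regions in SPOPmut with DHT and 10, 9, 10 and 9 in SPOPmut with EtOH, against 6, 7, 6 and 7 in Control with DHT and 7, 6, 6 and 6 in Control with EtOH. The lowest SPOPmut library thus lay above the highest Control library. The difference was 3.25 regions (exact permutation test within treatment, p = 0.000408, the smallest the design allows, Benjamini-Hochberg adjusted p = 0.00325). The regions behind it lay on both sides of the gene body and, in region 8, inside it. Region 5 (40279791 to 40280400), 7.36 kb beyond the end of the gene body away from its start, was called in all 8 SPOPmut and none of the 8 Control libraries (exact stratified test, adjusted p = 0.00961). Region 3, 9.05 kb beyond that end, was called in all 8 SPOPmut libraries against 3 of 8 Control libraries, and region 12, 8.02 kb on the start side, in 6 of 8 against 0 of 8. Region 1, 14.5 kb beyond the far end, was called in 4 SPOPmut libraries, all with DHT, and region 8 in 3 SPOPmut libraries, and neither in any Control library. Regions 1, 3, 8 and 12 did not pass (exact stratified test, adjusted p = 0.169, 0.169, 0.753 and 0.0695).

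Sat1 (gene 20229, chromosome X, 155213126 to 155216449) had 10 regions tested. SPOPmut with DHT had 10, 8, 9 and 9 called and SPOPmut with EtOH 9, 8, 8 and 8, while every Control library had the same 7. The difference was 1.625 regions (exact permutation test, p = 0.000408, adjusted p = 0.00325), and no SPOPmut library reached as low as a Control library. Region 1 (155185017 to 155185471), 27.9 kb from the gene body, was called in each of the 8 SPOPmut libraries and in 0 of 8 Control libraries (exact stratified test, adjusted p = 0.00961). Regions 6 and 7, at 6.62 and 3.92 kb, were called in 2 and 3 SPOPmut libraries and in no Control library. With regions taken only within 25 kb, which drops region 1, the difference was 0.625 and did not pass (exact permutation test, adjusted p = 0.167; 0.00263 to 0.174 over the alternatives that leave no library out), and it was 5.25 when peaks had to cover 50% of a region.

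Paox (gene 212503, chromosome 7, 140115735 to 140134334) had 6 regions tested, of which 5 lay in its body. All 6 were called in every library of SPOPmut with DHT and 5 in every library of SPOPmut with EtOH, against 2, 3, 3 and 3 in Control with DHT and 2, 2, 2 and 1 in Control with EtOH. The groups did not overlap, and the difference was 3.25 regions (exact permutation test, p = 0.000408, adjusted p = 0.00325). Region 2 (140121436 to 140121873), region 3 (140122710 to 140123576) and region 6 (140134942 to 140135638) were each called in the 8 SPOPmut libraries and in 0 of 8 Control libraries (exact stratified test, adjusted p = 0.00961 each). Regions 2 and 3 lay inside the gene body of the gene table and region 6 lay 0.956 kb beyond it, 2.27 kb from Mtg1. The known start windows of Paox (140125407 to 140125706 and 140125435 to 140125734, plus strand) lie inside that body. Regions 2 and 3 lay before them, on the upstream side.

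Azin1 (gene 54375, chromosome 15, 38487430 to 38519294) held the most regions, 26, some of which passed in each direction. Its libraries had 21, 21, 22 and 22 in SPOPmut with DHT and 19 each in SPOPmut with EtOH, against 23, 22, 21 and 21 in Control with DHT and 22, 20, 22 and 23 in Control with EtOH. The groups overlapped with DHT and did not with EtOH, and the difference of -1.5 regions did not pass (exact permutation test, adjusted p = 0.0909). Single regions of Azin1 differed in opposite directions. Region 10 (38452116 to 38453406), 34.7 kb from the body, and region 23 (38566975 to 38567643), 48.0 kb on the other side, were called in no SPOPmut and all 8 Control libraries (exact stratified test, adjusted p = 0.00961 each). Region 20 (38535267 to 38535699), at 16.2 kb, was called in all 8 SPOPmut libraries and 1 of 8 Control libraries (exact stratified test, adjusted p = 0.0292). The gene count passed as lower in SPOPmut when calls were scaled to their chromosome (-5.2 regions, exact permutation test, adjusted p = 0.00201), to the list (-2.22, 0.0109) or to lists of equal length (-1.5, 0.0159), and without Control with DHT replicate 3 or 4 or Control with EtOH replicate 2 (-1.62, -1.62 and -1.79, adjusted p from 0.0482 to 0.0497), while within 25 kb it was 0.25 (0.902; 0.00201 to 1 over all alternatives that leave no library out).

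Over single regions, 6 of the 76 were called more often in SPOPmut (background 3.76%) and 2 less often (background 3.23%), namely those just given for Amd1, Sat1, Paox and Azin1. The other 68 did not pass. With only peaks of signal at least 400, Amd1 region 5, Sat1 region 1, Azin1 region 23 and Paox regions 2 and 3 no longer passed (exact stratified test, adjusted p from 0.0641 to 0.336), nor did Amd1 region 5 with lists of equal length (0.0631) or Paox region 3 with peaks covering 50% of it (0.0583). For each of the 8 regions the highest adjusted p over all alternatives that leave no library out lay between 0.184 and 0.336, so each call was lost under at least 1 of them. Among these, the replicate block compared same-numbered libraries by an exact sign test. Regions that separated the genotypes completely had an adjusted p of 0.184 there, the lowest that test gave. No region could pass in that setting, so a loss there says nothing about these regions. Azin1 regions 10 and 20 and Paox region 6 were lost in that setting alone. With DHT, 9 regions were called in the 4 SPOPmut libraries and in 0 of 4 Control libraries (background 6.41%) and 2 the other way (4.22%). With EtOH, the counts were 6 (4.84%) and 2 (4.36%). A contrast of 4 against 4 libraries cannot go below p = 0.0286 in an exact test, so these counts carry no test. Of these, 5 of the gained and both of the lost regions were the same under both treatments, 1 further region gained with EtOH was Amd1 region 12, and 4 further regions gained with DHT were Azin1 region 20, named above, and Amd1 region 1, Azin1 region 22 and Smox region 3. Those last 3 were called in the 4 libraries of SPOPmut with DHT and in no other library of the 16, as were 1.76% of all regions tested.

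**Figure D2:**
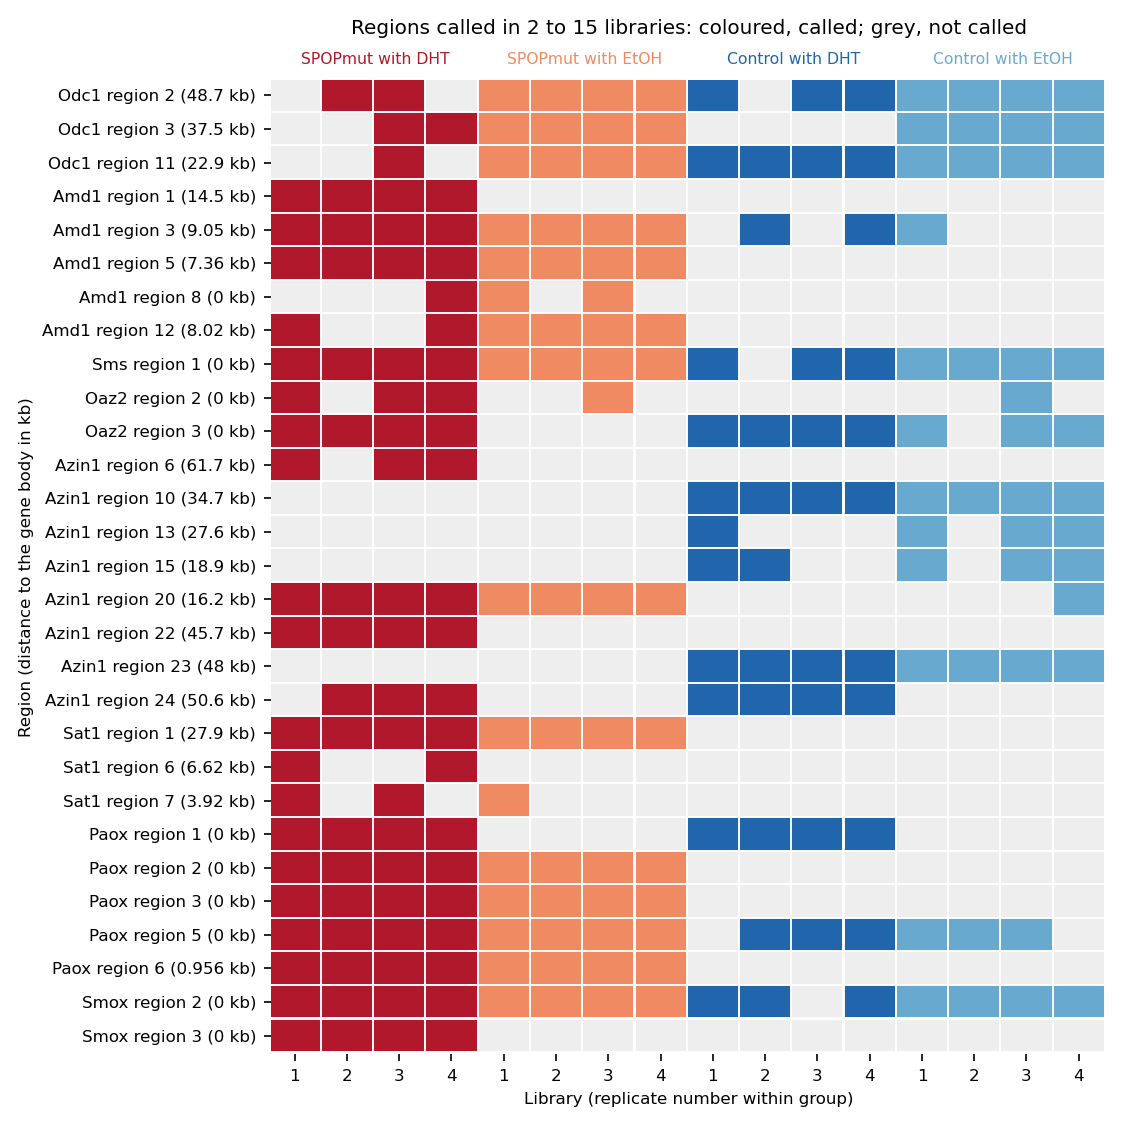
Calls (coloured, called; grey, not called) of the 29 regions called in 2 to 15 libraries, with regions down the page by gene and distance to the gene body in kb, and the 16 libraries across by group. Region 1 of Paox follows DHT in both genotypes, regions 2, 3 and 6 of Paox follow SPOPmut, and regions 10 and 23 of Azin1 are coloured in the 8 Control libraries only.

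**Figure D3:**
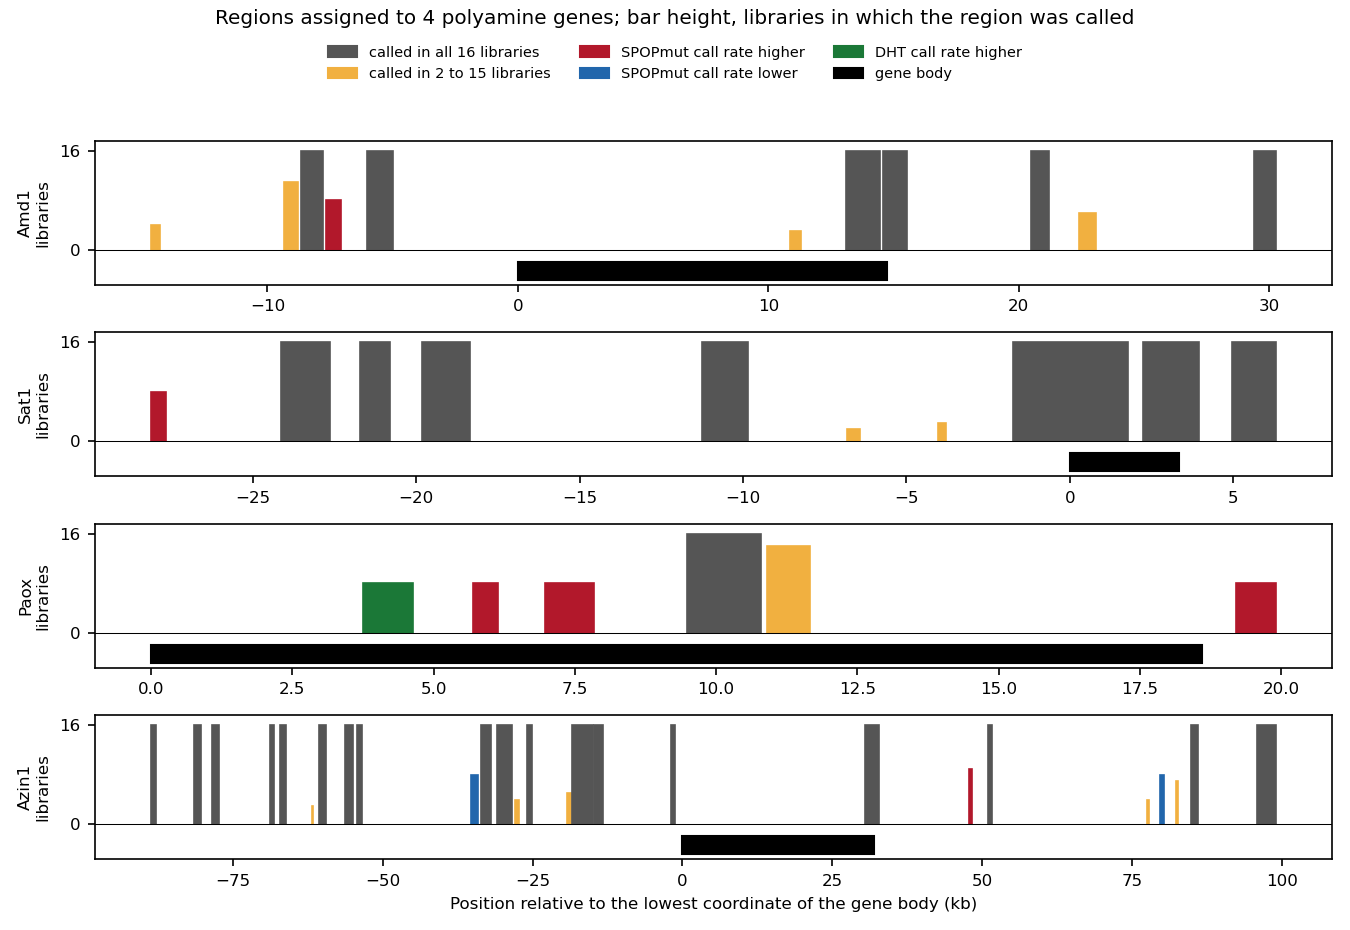
Position of each tested region (horizontal axis, kb from the lowest coordinate of the gene body) at Amd1, Sat1, Paox and Azin1, with bar height for the number of libraries (of 16) in which it was called and the gene body in black. Red and blue bars passed the SPOP test and the green bar passed the DHT test. Grey bars reach 16, and yellow bars are regions called in 2 to 15 libraries that passed neither test.

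Among the regions called in all 16 libraries, a call cannot differ, so their strength was compared by rank. The measure is the percentile of the region's highest -log10 p, the authors' own value from their peak caller, among the 39300 regions called in every library, which is one fixed list. It has no unit of opening, was added after seeing the data and carries no test. Of the 47 such regions at polyamine genes, 21 ranked higher in every SPOPmut than in every Control library under both treatments and 2 ranked lower, and 24 overlapped under at least 1 treatment. Over all 39300, 18.1% ranked higher and 17.7% lower. The median difference over the 47 was 7.29 percentile points, against 0.0538 over all. Chromosomes differed in this measure, with 52.2% of regions ranking higher and 5.8% lower on chromosome 2 (Smox), 49.2% and 5.43% on chromosome 15 (Azin1), 24.7% and 6.3% on X (Sat1, Sms), 21.2% and 13.5% on chromosome 12 (Odc1), and 7.34% and 25.5% on chromosome 10 (Amd1, Oaz1). The part of such chromosome-wide shifts in the ranks was not tested.

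**Figure D4:**
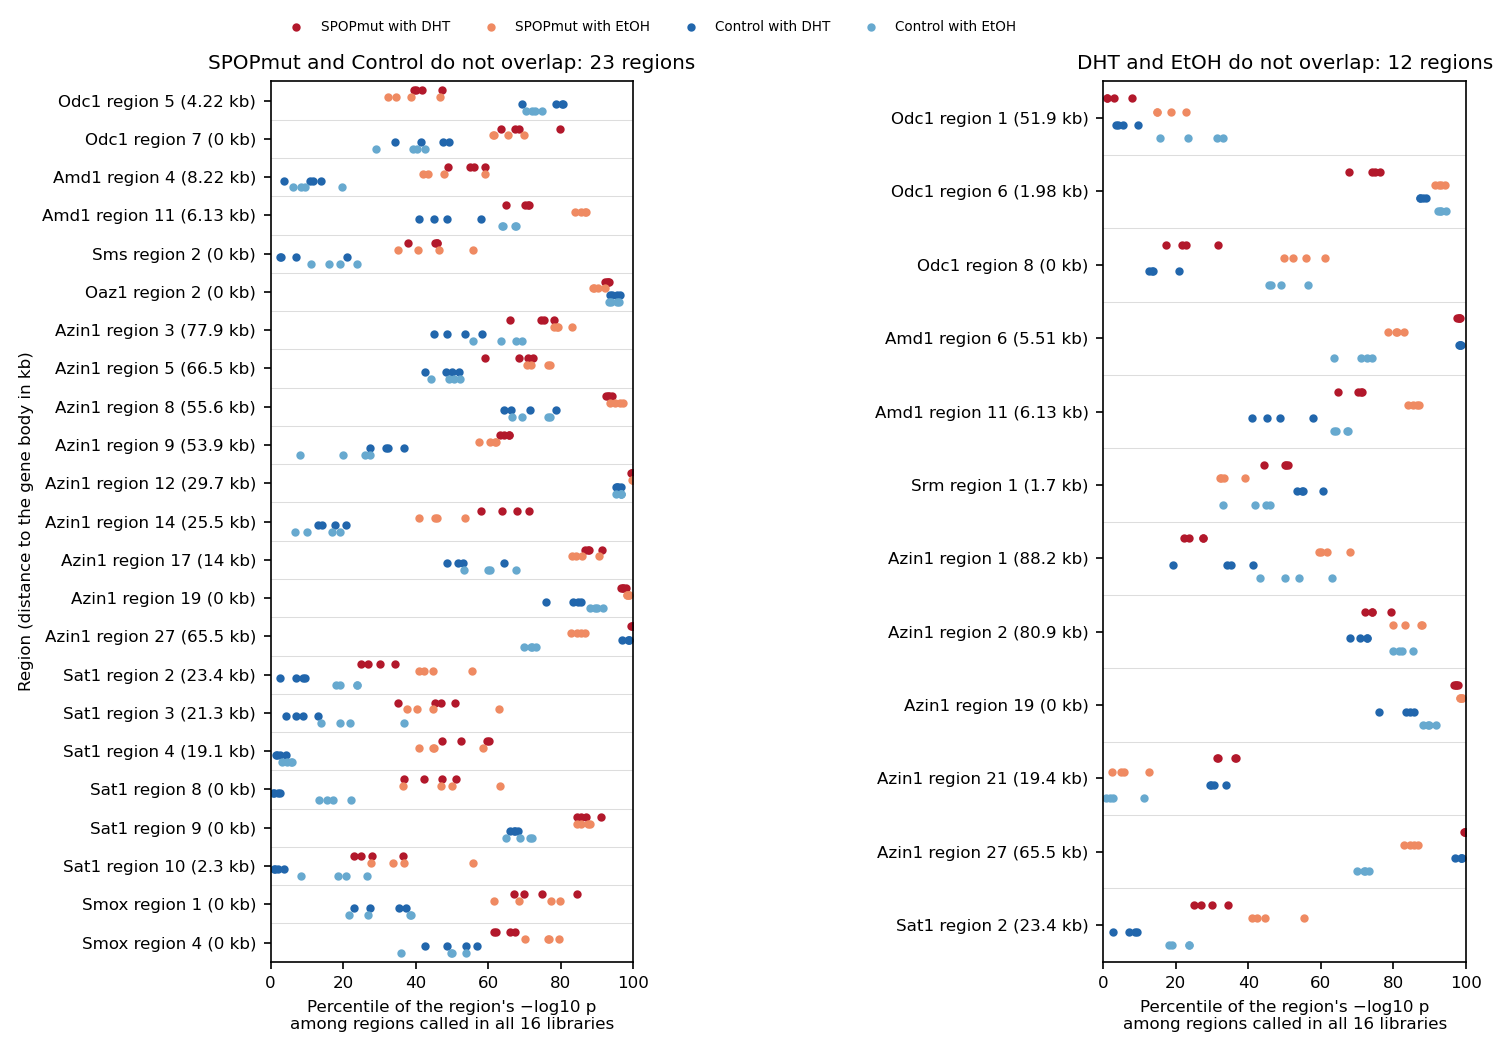
Percentile of -log10 p among regions called in all 16 libraries (horizontal axis) for polyamine regions whose libraries do not overlap between SPOPmut and Control (left, 23 regions) or between DHT and EtOH (right, 12 regions), with points for libraries. Sat1 regions lie right in SPOPmut, and Amd1 region 6 and Azin1 region 27 lie right with DHT in both genotypes.

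At the breakdown genes Smox and Sat1 the start regions ranked higher in SPOPmut. At the Smox start, region 1 ranked at 69.9, 67.1, 74.7 and 84.4 in SPOPmut with DHT and 79.7, 77.3, 68.4 and 61.5 in SPOPmut with EtOH, against 27.3, 22.9, 37.4 and 35.3 in Control with DHT and 38.3, 38.6, 26.9 and 21.6 in Control with EtOH. Every SPOPmut library was above every Control library, by 41.8 points on average, and Smox region 4, inside the gene body, was higher by 21.0. The midpoint of region 1 also lay 0.063 kb from Gm30679, another protein-coding gene. On chromosome 2, 52.2% of all such regions ranked higher. At Sat1, 6 of the 7 regions ranked higher in SPOPmut. The Sat1 start, region 9, ranked at 87.0 ± 2.83 in SPOPmut with DHT and 86.4 ± 1.67 in SPOPmut with EtOH, against 67.2 ± 0.949 in Control with DHT and 69.3 ± 3.24 in Control with EtOH (mean ± SD, n = 4). The widest gap was at region 4, 19.1 kb from the Sat1 body, at 54.9 ± 6.2 in SPOPmut with DHT and 47.3 ± 7.71 in SPOPmut with EtOH, against 2.47 ± 1.2 in Control with DHT and 4.73 ± 1.3 in Control with EtOH (mean ± SD, n = 4). The Paox start, region 4, overlapped between genotypes with EtOH, at 53.4 to 61.3 in SPOPmut and 54.2 to 60.1 in Control.

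Among the synthesis genes, Odc1 was divided. Its start, region 7, ranked at 69.9 ± 7.02 in SPOPmut with DHT and 64.6 ± 4.03 in SPOPmut with EtOH, against 43.1 ± 6.65 in Control with DHT and 37.8 ± 6.08 in Control with EtOH (mean ± SD, n = 4). Region 5, 4.22 kb from the body, differed by -34.8 points, with 32.3 to 47.2 over the 8 SPOPmut libraries and 69.3 to 80.5 over the 8 Control libraries. The start and a region near it thus lay on opposite sides in the same libraries. The Sms start, region 2, ranked at 35 to 55.7 over the SPOPmut libraries and 2.58 to 23.7 over the Control libraries. At Amd1 the start, region 10, overlapped between genotypes (84.6 to 90.5 against 88.9 to 92.6 with DHT), while region 4, 8.22 kb beyond the far end of the body and beside region 5, ranked at 54.8 ± 4.19 in SPOPmut with DHT and 48.1 ± 7.78 in SPOPmut with EtOH, against 10.0 ± 4.36 in Control with DHT and 10.9 ± 5.95 in Control with EtOH (mean ± SD, n = 4). Both Srm regions overlapped between genotypes under at least 1 treatment.

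Among the regulators, Azin1 ranked higher in SPOPmut at 9 of its 18 shared regions and lower at none, a share near the 49.2% of all such regions on chromosome 15. Region 19, which covers 1 end of the Azin1 body, ranked at 96.6 to 98.9 over the SPOPmut libraries and 76.0 to 91.7 over the Control libraries. The Oaz1 start, region 2, was the only other region besides Odc1 region 5 to rank lower in SPOPmut, at 88.9 to 93.3 against 93.4 to 96.3, a difference of -3.31. The Oaz2 start overlapped between genotypes with DHT.

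For DHT, the same libraries were compared between treatments within genotype. Paox had more called regions with DHT and Odc1 fewer, and the other 7 genes tested did not pass. With only peaks of signal at least 400, Sat1 passed as lower with DHT (-1.5 regions, against 0.375 with all peaks, exact permutation test, adjusted p = 0.026; 0.026 to 1 over the alternatives that leave no library out). The share called among all genes was 5.41% for more and 3.14% for fewer. The median difference over the 9 was 0.375 regions, against 0 over all genes.

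Paox gained 1 region with DHT, with the counts already given differing by 1.0 region (exact permutation test within genotype, p = 0.00163, adjusted p = 0.0288; 0.00887 to 0.161 over the alternatives that leave no library out). Region 1 (140119490 to 140120380), in the gene body 3.51 kb from Echs1, was called in all 8 DHT and none of the 8 EtOH libraries (exact stratified test, adjusted p = 0.0231; 0.0109 to 0.441 over the same alternatives). It was the only one of the 76 regions to pass for DHT (background 1.51% called more often and 0.259% less often), and none was called less often. At this gene the regions that followed SPOP and the region that followed DHT were thus different ones. The upper ends of the 2 ranges, 0.161 and 0.441, came from the replicate block. No gene or region could pass for DHT in that setting, so a loss there says nothing about Paox.

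Odc1 (gene 18263, chromosome 12, 17544808 to 17551502) had 11 regions tested and all 11 were called in each of the 8 EtOH libraries. With DHT the counts were 8, 9, 11 and 9 in SPOPmut and 10, 9, 10 and 10 in Control, so 1 DHT library equalled the EtOH libraries and 7 were lower. The difference of -1.5 regions passed (exact permutation test, p = 0.00204, adjusted p = 0.0288). Region 3 (17507044 to 17507567), 37.5 kb from the body, was called in 2 of 4 SPOPmut and 0 of 4 Control libraries with DHT, against all 8 EtOH libraries. Region 2 (17495718 to 17496467), at 48.7 kb, was called in 2 of 4 SPOPmut and 3 of 4 Control libraries with DHT, against all 8 EtOH libraries, and region 11 (17574252 to 17574652), at 22.9 kb, in 1 of 4 SPOPmut and 4 of 4 Control libraries with DHT, against all 8 EtOH libraries. All 3 were thus missing in some DHT libraries alone, and none passed by itself (exact stratified test, adjusted p = 1, 0.161 and 0.789 for regions 2, 3 and 11). Within 25 kb of the body the difference was -0.375 (exact permutation test, adjusted p = 0.426), and within 10 kb it was 0. With 50% of a region covered it was -1.62 (0.117), and with signal of at least 400 it was -2.88 and passed (0.00954). Of the 9 alternatives that leave no library out, it passed in 5 and not in 4 (adjusted p from 0.00777 to 1). The 4 include the replicate block, where no gene could pass for DHT. Without any 1 library of SPOPmut with EtOH the difference was -1.5 and did not pass (0.0616 to 0.0639).

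Ranks gave further DHT values within the regions called in every library. Of the 47, 4 ranked higher in every DHT than in every EtOH library in both genotypes (8.0% of all 39300) and 8 ranked lower (9.64%), with a median difference of -0.283 points. Amd1 region 6 (40281418 to 40282480), 5.51 kb beyond the far end of the body, ranked at 98.1, 98.3, 98.1 and 97.5 in SPOPmut with DHT against 78.4, 80.7, 80.9 and 82.9 in SPOPmut with EtOH. In Control it ranked at 98.2, 98.3, 98.7 and 98.4 with DHT against 72.7, 74.2, 71.0 and 63.7 with EtOH. Amd1 region 6 was among the strongest of every DHT library and its groups did not overlap, although the Amd1 count of called regions did not pass (difference 0.25, exact permutation test, adjusted p = 1). Amd1 region 11, 6.13 kb on the start side, went the other way, with a difference of -17.0 points between DHT and EtOH. The other 4 shared Amd1 regions overlapped between treatments in at least 1 genotype.

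Azin1 region 27 (38583239 to 38586336), 65.5 kb from the body, had the same form, at 99.7 ± 0.115 in SPOPmut with DHT against 85.0 ± 1.62 in SPOPmut with EtOH, and 98.3 ± 0.918 in Control with DHT against 71.8 ± 1.33 in Control with EtOH (mean ± SD, n = 4). Azin1 region 21, at 19.4 kb, ranked 27.2 points higher with DHT, and Srm region 1, at 1.7 kb, 14.5 points higher. The 8 regions that ranked lower were 3 at Odc1, 3 at Azin1 and 1 each at Amd1 and Sat1. Odc1 region 8, inside the gene body, ranked at 23.3 ± 6.04 in SPOPmut with DHT against 54.8 ± 4.9 in SPOPmut with EtOH, and at 15.2 ± 3.75 in Control with DHT against 49.3 ± 4.94 in Control with EtOH (mean ± SD, n = 4). Odc1 regions 1 and 6, 51.9 and 1.98 kb from the body, differed by -17.4 and -12.5 points. None of the gene starts was among the regions that followed DHT, apart from the region over 1 end of Azin1 (-4.38).

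By calls, 5 polyamine regions were present in all 4 DHT and no EtOH library of SPOPmut (background 4.7%) and 0 the other way (1.98%). They were Paox region 1, Amd1 region 1, Azin1 region 22, Smox region 3 and Oaz2 region 3. In Control there were 2, Paox region 1 and Azin1 region 24 (38569720 to 38570036, background 2.93%), and 1 the other way, Odc1 region 3 (1.96%). Oaz2 region 3 (65681437 to 65682000 on chromosome 9), inside the gene body, was called in 4 DHT and 0 EtOH libraries of SPOPmut and in 4 DHT and 3 EtOH libraries of Control.

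Whether the DHT effect differed between genotypes was tested on the same counts. No polyamine gene passed, and 0.0% of the 11212 genes did (exact permutation test with treatment labels exchanged within genotype, adjusted p under 0.05). A gene that responded in a single genotype, with constant counts in the other, cannot go below p = 0.0286 in this exact permutation test. The test also assumes no DHT effect. The lack of a pass therefore does not show that the DHT effects were equal. At an unadjusted p under 0.05 there were 1 polyamine gene, Smox, and 799 genes in all (7.13%). Smox (gene 228608, chromosome 2, 131491858 to 131525183) had 4 called regions in each library of SPOPmut with DHT and 3 in each library of SPOPmut with EtOH, against 3, 3, 2 and 3 in Control with DHT and 3 in each library of Control with EtOH. Its DHT effect was 1.25 regions larger in SPOPmut (exact permutation test, p = 0.0143, adjusted p = 0.511), and it came from region 3 (131508456 to 131509125) inside the gene body and from region 2, which was not called in Control with DHT replicate 3. The value passed where the mean DHT effect of both genotypes was subtracted first (exact permutation test, adjusted p = 0.0089; 0.0089 to 1 over the alternatives that leave no library out), a setting under which 407 of the 11212 genes passed with a larger and 166 with a smaller effect in SPOPmut. Oaz2 and Azin1 had effects 1.5 and 2.5 regions larger in SPOPmut that did not pass (exact permutation test, adjusted p = 0.902 and 0.796).

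The remaining genes gave little to compare by calls. Srm (chromosome 4) had its 2 regions called in all 16 libraries, Oaz1 (chromosome 10) had 1 region called in all 16, and Sms (chromosome X) had both regions called in all libraries except Control with DHT replicate 2, which had 1. Oaz2 (chromosome 9) had 3, 2, 3 and 3 called regions in SPOPmut with DHT and 1, 1, 2 and 1 in SPOPmut with EtOH, against 2 in each library of Control with DHT and 2, 1, 3 and 2 in Control with EtOH, and passed neither exact permutation test (adjusted p = 1 for SPOP and 0.328 for DHT).

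Beyond the 10, a list of 35 genes of polyamine supply, transport and use was read the same way, and 19 had at least 2 regions. In SPOPmut 5 had more called regions (19.4% of all genes), 1 had fewer (12.1% of all genes) and 13 did not pass. Those with more were Otc, which uses up ornithine, Ahcy, which clears the by-product of methylation, Atp13a2, a lysosomal polyamine exporter, Slc3a2, a subunit of amino acid transporters, and Sbp, the spermine-binding protein that mouse prostate secretes. Sbp had 6 regions in every SPOPmut library, against 4 to 5 in Control with DHT and 3 to 5 in Control with EtOH (difference 1.875, exact permutation test, adjusted p = 0.00325). Mtap, which salvages the by-product of spermidine and spermine synthesis, fell by 4.125 regions (exact permutation test, adjusted p = 0.00325). It lies on chromosome 4, whose share of called regions differed by -8.01% between SPOPmut and Control libraries. Atp13a2, which had more regions, lies on the same chromosome. The part of this chromosome-wide shift was not tested. With DHT 2 had more (5.41% of all genes), 2 had fewer (3.14% of all genes) and 15 did not pass. The 2 arginases, which make ornithine, moved apart: Arg2 had 3 to 4 regions with DHT and 2 in every EtOH library (difference 1.375), while Arg1 had 2 in every DHT library and 3 in every EtOH library (difference -1.0, exact permutation test, adjusted p = 0.0119 for each). Slc3a2 gained 1.5 regions with DHT (exact permutation test, adjusted p = 0.0206) and Mtap fell by 2.875 (adjusted p = 0.0465). The median difference over the 19 was 0.375 regions for SPOP and 0.0 for DHT.

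Genes on other chromosomes with the counts most like a polyamine gene were sought over the 16 libraries, which share list lengths and groups, so the correlations only describe. Closest to Paox were Cdc14a (Pearson r = 0.98), Slc16a12 (0.978) and Clca2 (0.971). Closest to Amd1 were Niban1 (0.968), Slc38a2 (0.964) and Apob (0.96). Closest to Odc1 were Shb (0.835), Stau2 (0.819) and Zfp366 (0.814). Clca2 averaged 6.0 called regions in SPOPmut with DHT and 5.0 in SPOPmut with EtOH, against 4.0 in Control with DHT and 3.0 in Control with EtOH.

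The chromosomes of these genes also held unequal shares of all calls. The share of called regions was higher in SPOPmut than in Control libraries by 19.9% on chromosome 2 (Smox), 17.6% on 15 (Azin1), 8.41% on 7 (Paox) and 3.93% on X (Sat1), and differed by -8.45% on 10 (Amd1). After the chromosome correction described for Azin1, the SPOP difference was 3.69 regions for Amd1, 1.13 for Sat1 and 2.73 for Paox. All 3 were past the threshold (exact permutation test, adjusted p = 0.00201, 0.00343 and 0.00201, and up to 0.0477, 0.174 and 0.0477 over all alternatives that leave no library out). For Smox the difference was 0.00932, against 0.625 without that correction.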

How the data were processed

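ATAC-seq peak lists of 16 mouse prostate organoid libraries were used, 1 list per library. Reads were aligned with Bowtie2 2.3.4.1 to mm10, handled with SAMtools 1.8, and peaks called with Genrich (version not given in the sources used here), per the submitters' processing notes. The −log10 p at each summit and the signal, which is at least 200 in every list, are values the authors deposited, and the score is deposited as a whole number of at most 1000. They were used here only to rank or filter peaks. The lists hold no read counts, so depth and its precision are unknown, and no 2 lists were identical.

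Peaks overlapping by at least 1 bp were merged, regions called in 1 library were set aside, and each region went to the nearest protein-coding gene body within 100 kb of its midpoint (gene table of GRCm38.p6, matched by symbol, without strand or exons). Called regions per gene were compared by exact permutation tests (4900 arrangements, labels exchanged within the other factor, two-sided) over 11212 genes with 2 or more regions, single regions by an exact stratified test over 80352 regions, with Benjamini-Hochberg adjusted p under 0.05. The whole tables were fitted and the 10 genes printed. Named regions are those that passed, that separated 2 groups of 4 completely or that cover a gene's start, plus regions whose ranks did not overlap and single regions behind a gene's difference, which were chosen after their values were seen. The rank of regions called in all 16 libraries was added after seeing the data. The genes, lists and tests were chosen with earlier results of these data known. The gene test for SPOP was checked on simulated data, and the region test was checked there for its smallest p. The test of the difference in DHT effect and the sign test were not checked in this way. Python 3.11.15 was used with NumPy 2.4.6, pandas 2.3.3, SciPy 1.17.1 and Matplotlib 3.10.9.

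No correlation between the deviations of same-numbered libraries exceeded 0.1, so libraries were treated as unpaired. Alternatives changed the assignment distance, the signal minimum, list length, coverage of a region, regions of 1 library, scaling to the list, the chromosome correction, the replicate block and the libraries included. Pooled signal tracks were not analysed here. A few marker genes are not reported here.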

Additional observations from a re-analysis of the deposited data

Results flagged for a closer look

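A library was looked at again where it stood far from the other 3 of its group by Dixon's ratio at the 95% level, which chance exceeds in about 1 in 20 groups of continuous values. Of 40 groups of called-region counts 9 were such cases, each of 3 equal counts and 1 that differed by 1 region, where the ratio is at its highest by construction, so that rate does not apply to them. The library's count against that of the other 3 was 9 against 10 (Odc1, Control with DHT replicate 2), 7 against 6 (Amd1, Control with EtOH replicate 1) and 9 against 8 (Sat1, SPOPmut with EtOH replicate 1). Sms had 1 against 2 in Control with DHT replicate 2, Smox 2 against 3 in Control with DHT replicate 3, and Oaz2 2 against 3 in SPOPmut with DHT replicate 2 and 2 against 1 in SPOPmut with EtOH replicate 3. Paox had 2 against 3 in Control with DHT replicate 1 and 1 against 2 in Control with EtOH replicate 4.

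Of 188 groups of ranks (percentile of −log10 p among regions called in all 16 libraries), 8 were such cases. Odc1 region 5 ranked at 69.3 in Control with DHT replicate 2, against 78.6 to 80.5 in the other 3, and region 8 at 20.8 in Control with DHT replicate 4, against 12.7 to 13.8. Odc1 region 12 ranked at 1.38 in SPOPmut with EtOH replicate 4, against 4.2 to 4.75. Sms region 2 ranked at 38.0 in SPOPmut with DHT replicate 2, against 45.3 to 46. Srm region 1 ranked at 44.2 in SPOPmut with DHT replicate 1, against 50.2 to 50.9, and at 39.1 in SPOPmut with EtOH replicate 4, against 32.3 to 33.4. Azin1 region 12 ranked at 95.2 in Control with EtOH replicate 4, against 96.5 in each of the others, and Azin1 region 27 at 96.9 in Control with DHT replicate 2, against 98.6 to 98.9.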

How the results depend on the processing

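Of 879 recomputed values of the count and call tests, 835 stayed on the same side of the threshold without a change of sign, and 10 changed sign. A value of 0, in the main result or the alternative, was counted as no change of sign. Within 25 kb of the gene body, 1 gene passed for DHT, 5 regions for SPOP, 7 and 5 regions were separated by SPOP with DHT and with EtOH and 1 by DHT in Control, and the Azin1 differences were 0.25 for SPOP and -0.25 for DHT. Within 10 kb these counts were 1 gene, 4 regions, 5, 5 and 1, with 3 separated by DHT in SPOPmut and Amd1 at -0.25 for DHT; both settings hold fewer regions. With signal of at least 400, 2 regions passed for DHT and 5 were separated by DHT in Control, Sat1 passed as lower with DHT (-1.5, exact permutation test, adjusted p = 0.026; 0.026 to 1 over the alternatives), Smox was -0.25 for DHT, and the difference in DHT effect was -1 for Oaz2 and -0.75 for Azin1. With peaks covering 50% of a region, 1 gene passed for DHT, Odc1 was 0.125 for SPOP and 0.25 for the difference in DHT effect, and Sat1 was -0.5 for DHT. With regions called in 2 to 14 libraries 2 regions passed for DHT, and with the mean DHT effect subtracted 1 gene passed for its difference. For these the cause was not tested. With the replicate number as a block, Amd1, Sat1 and Paox still passed for SPOP (3 genes), while 0 genes passed for DHT, 0 regions for SPOP and 0 regions for DHT (exact tests). In that setting 0 of all genes tested passed for DHT, although counts such as those of Arg1 separated the treatments completely. Completely separated regions had an adjusted p of 0.184 for SPOP and 0.441 for DHT (exact sign test). None could pass there, so these counts of 0 say nothing about the polyamine genes. Same-numbered libraries did not correlate over 0.1 in any of 8 pairs by treatment (-0.11 to 0.097) or 8 by genotype (-0.003 to 0.046), and 10 of 16 libraries correlated best with their own number between genotypes and 4 of 16 between treatments, and replicate 2 had the shortest list in each of the 4 groups, a hint from the data and not the design. Leaving out 1 library, 3 to 4 genes passed for SPOP, 1 to 2 for DHT and 0 to 0 for the difference, 8 to 9 regions for SPOP and 1 to 2 for DHT (2 without SPOPmut with DHT replicate 1), and separated regions numbered 11 to 13 and 8 to 11 for SPOP with DHT and EtOH, and 5 to 6 and 3 to 3 for DHT in SPOPmut and Control. Ranks did not overlap between genotypes in 23 to 25 regions and between treatments in 12 to 14, and in 29 and 13 when ranked by signal. Depth is unknown, so a missing call is not shown to be closed chromatin.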
